A study of Mus musculus with 60 samples.

Results

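Medium spiny neurons are the main cell type of the striatum, and 8 genes that carry or define their response to dopamine were followed here: Drd1, Drd2, Adora2a, Ppp1r1b, Pde10a, Penk, Pdyn and Tac1. They were taken by symbol from the deposited table, which held all 8 among its 21999 genes. The study sequenced messenger RNA from 3 brain regions (prefrontal cortex, striatum, hippocampus) of each of 20 mice, in 60 libraries. The mice were wild-type (WT) or carried a knockout of Glo1 (KO), the gene of glyoxalase I, which clears the reactive by-product of sugar breakdown methylglyoxal. From 8 to 12 weeks of age their food held vitamin B6 at 1.4 mg (normal diet) or at 5 µg (vitamin B6-lacking diet) per 100 g. The 4 combinations, here WT-normal, WT-lacking, KO-normal and KO-lacking, had 5 mice each, and the 12 groups by region 5 libraries each. All KO libraries were labelled batch 1 and all WT libraries batch 2, so genotype and batch cannot be told apart in any comparison below.

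Dopamine reaches the striatum from the midbrain and acts on receptors of opposite sign. Neurons of the direct pathway carry the D1 receptor, which raises cyclic AMP, and release dynorphin and substance P besides GABA. Neurons of the indirect pathway carry the D2 receptor, which lowers cyclic AMP, together with the adenosine A2A receptor, which raises it, and release enkephalin. In both kinds of neuron DARPP-32, an inhibitor of protein phosphatase 1, and PDE10A, which degrades cyclic nucleotides, act downstream of these receptors.

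In GENCODE annotation of the mouse genome GRCm38 the genes lie on 8 different chromosomes. Drd1, the D1 receptor gene, spans chr13:54051183-54055705 on the minus strand, and Drd2, the D2 receptor gene, spans chr9:49340627-49408177 on the plus strand. Adora2a, the A2A receptor gene, lies at chr10:75316877-75334784 (plus), Ppp1r1b, which encodes DARPP-32, at chr11:98348404-98357796 (plus) and Pde10a at chr17:8525372-8986648 (plus). The precursor genes of the peptides are Penk for enkephalins at chr4:4133531-4138819 (minus), Pdyn for dynorphins at chr2:129686565-129699844 (minus) and Tac1 for substance P at chr6:7554879-7565834 (plus). Pde10a shares chromosome 17 with the knocked-out gene Glo1, 21.6 megabases away. Penk, Ppp1r1b and Pde10a overlap annotated genes on the opposite strand. The strand setting of the counting was not given in the sources used here, so reads of such partners cannot be told apart from theirs.

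The RefSeq promoter table (GRCm38.p6) held entries for 5 of the 8 genes, all but Adora2a, Ppp1r1b and Penk. Since the D1 receptor acts through cyclic AMP, the 250 bases before the start site were searched for the 5-letter half-site of the cyclic AMP response element, CGTCA, and for its reverse complement TGACG; the full palindromic element holds both, overlapping. These letters occurred in 17.8% of all 32851 windows of that length in the table. Capitals mark the half-sites in the following sequences, which run 5′ to 3′ on the gene's own strand. The windows are chr13:54055659-54055908 for Drd1, chr9:49340153-49340402 for Drd2, chr2:129699939-129700188 for Pdyn and chr6:7554811-7555060 for Tac1; for Drd1 and Pdyn the first listed start site is shown. They set both receptors beside the 2 direct-pathway peptides that the table holds. The start sites are those of RefSeq and differ from the ends of the GENCODE gene spans given above. The Drd1 and Tac1 windows reach into their GENCODE spans, while those of Drd2 and Pdyn lie outside. The later of the marked half-sites of Tac1 lies inside its GENCODE span.
Drd1: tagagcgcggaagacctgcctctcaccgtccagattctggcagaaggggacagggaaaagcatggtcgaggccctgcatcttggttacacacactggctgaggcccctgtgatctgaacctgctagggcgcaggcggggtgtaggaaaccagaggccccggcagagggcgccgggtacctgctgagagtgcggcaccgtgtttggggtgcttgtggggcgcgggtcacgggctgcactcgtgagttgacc
Drd2: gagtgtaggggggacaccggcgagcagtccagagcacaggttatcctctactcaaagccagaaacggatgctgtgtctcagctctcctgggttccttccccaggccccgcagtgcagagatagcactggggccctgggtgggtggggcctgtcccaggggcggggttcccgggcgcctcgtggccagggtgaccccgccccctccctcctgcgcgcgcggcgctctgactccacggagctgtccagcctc
Pdyn: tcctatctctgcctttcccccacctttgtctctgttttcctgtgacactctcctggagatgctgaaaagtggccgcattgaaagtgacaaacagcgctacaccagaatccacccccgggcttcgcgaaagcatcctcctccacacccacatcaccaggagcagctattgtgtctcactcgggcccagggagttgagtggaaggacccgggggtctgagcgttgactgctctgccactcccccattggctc
Tac1: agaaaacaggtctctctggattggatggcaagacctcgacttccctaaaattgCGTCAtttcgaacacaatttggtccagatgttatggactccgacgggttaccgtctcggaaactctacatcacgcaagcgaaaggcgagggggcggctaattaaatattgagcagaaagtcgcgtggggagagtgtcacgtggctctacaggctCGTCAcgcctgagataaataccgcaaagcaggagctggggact
Tac1 held 2 half-sites, which 3.9% of all windows matched with 2 or more, and the other 3 windows held 0. The upstream GC content was 64.0% for Drd1, 68.8% for Drd2, 57.2% for Pdyn and 51.2% for Tac1, beside a median of 52.4% over all windows. A match of letters describes the sequence and shows no binding.

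Libraries held between 7640047 and 13928265 counts on genes, and their RNA integrity numbers (RIN, on which higher is more intact) lay between 7.6 and 9.3. Glo1 itself had 0 to 10 counts in every KO library and 299 to 734 in every WT library, which matched the labels. The regions also matched theirs: 7 marker genes of medium spiny neurons outside the set summed to 1487 to 1918 RPKM (reads per kilobase of gene length, scaled to the library total) in the striatal libraries, 61.9 to 76.1 in the prefrontal cortex and 59.4 to 74.0 in the hippocampus. The 7 markers of cortical excitatory neurons were detected in the striatum too, at a summed 22.1 to 93.6 RPKM beside 366 to 434 in the prefrontal cortex. The p-values below measure the spread between mice. Tissue was measured in bulk, so fewer cells of a type and less RNA per cell cannot be told apart.

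All 8 genes were far higher in the striatum than in either other region, and in no case did the libraries overlap. The share of all genes without such overlap was not counted. Most genes differed between these regions by the edgeR test given below, with 69.9% called against the prefrontal cortex and 66.4% against the hippocampus. Penk was the most abundant per kilobase, at 965 ± 131 RPKM over the 20 striatal libraries (SD, 4 groups together), and ranked 6 among the 17572 genes detected there. Ppp1r1b (244 ± 41.3) and Pde10a (240 ± 22.3) followed at ranks 63 and 64, and did not differ beyond their spread. The receptors came next, with Drd1 at 142 ± 9.40 RPKM, Drd2 at 118 ± 23.0 and Adora2a at 40.1 ± 8.01. Of the direct-pathway peptides Tac1 stood at 63.9 ± 6.81 RPKM and Pdyn at 27.1 ± 3.69, both far below the enkephalin precursor. In order of mean level, neighbours overlapped in range from Drd1 through Drd2, Tac1 and Adora2a to Pdyn, and Ppp1r1b overlapped Pde10a. The lowest Penk library stood above every Ppp1r1b library, and the lowest Pde10a library above every Drd1 library. Orders between genes, here and below, depend on the gene lengths behind the RPKM values. These were 12598 bases for Pde10a, 1549 for Drd2 and 3526 for Drd1. The longest annotated transcripts had 7769, 2547 and 3576 bases, and the order on those lengths was not computed.

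**Figure D1:**
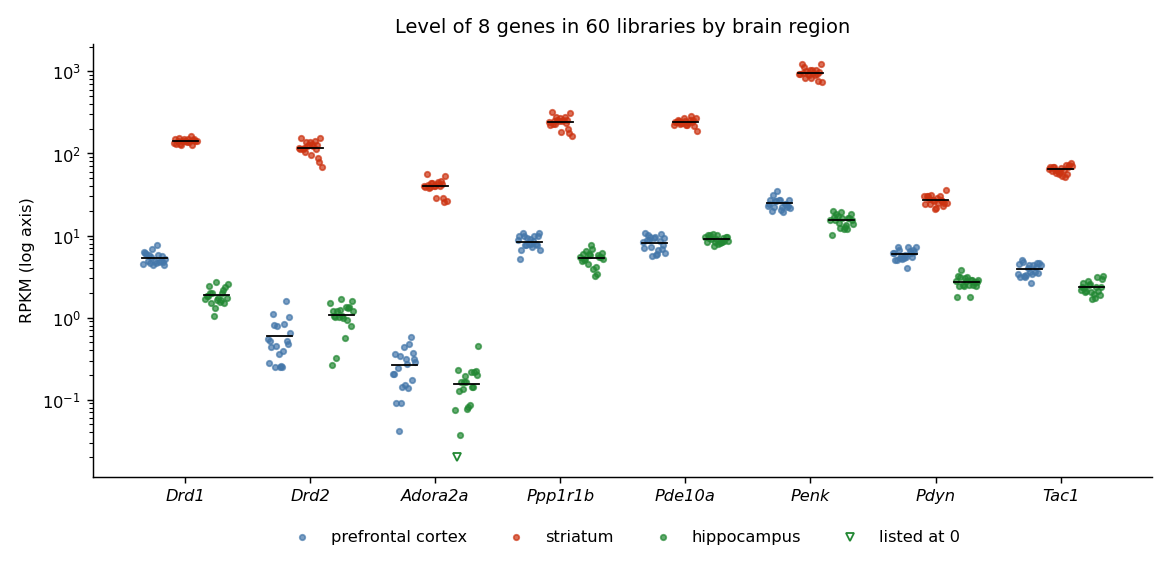
Level of the 8 genes in RPKM (log axis) in each of the 60 libraries, coloured by region, with 20 points and a bar at the mean per gene and region; an open triangle marks the hippocampal library in which Adora2a was listed at 0. Striatal points lie above every point of the other regions for each gene, with the smallest gap for Pdyn.

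Of the 8 genes, Drd2 and Adora2a differed most between the striatum and each other region. Drd2 had a lowest, median and highest value of 68.1, 120.0 and 156 RPKM in the striatum, 0.251, 0.495 and 1.62 in the prefrontal cortex and 0.262, 1.13 and 1.68 in the hippocampus. Its striatal level was higher by 7.77 (SE 0.12) on the log2 scale than the prefrontal one and by 6.84 (SE 0.11) than the hippocampal one. Among WT mice on the normal diet alone the prefrontal difference was 8.66 (SE 0.26), since Drd2 was lowest in the prefrontal cortex of that group. Adora2a exceeded the prefrontal level by 7.31 (SE 0.13) and the hippocampal level by 8.06 (SE 0.14), where it had 1 to 17 and 0 to 12 counts per library. Drd1 ran at 127, 142 and 162 RPKM (lowest, median, highest) in the striatum against 4.32, 5.03 and 7.59 in the prefrontal cortex and 1.04, 1.78 and 2.68 in the hippocampus, a log2 difference of 4.74 (SE 0.068) and 6.35 (SE 0.076).

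Ppp1r1b and Pde10a, whose products act downstream of the receptors, and the peptide precursor genes also differed widely. Ppp1r1b was higher in the striatum by 4.87 (SE 0.082) and 5.60 (SE 0.086) on the log2 scale than in the prefrontal cortex and the hippocampus, and Pde10a by 4.91 (SE 0.069) and 4.82 (SE 0.068). Penk differed by 5.31 (SE 0.075) and 6.06 (SE 0.078), and Tac1 by 4.07 (SE 0.066) and 4.85 (SE 0.070). Pdyn, which dentate granule cells of the hippocampus and some cortical interneurons are also known to make, had the smallest differences, 2.22 (SE 0.060) and 3.40 (SE 0.066). Its prefrontal mean was 21.8% of its striatal mean, beside 0.503% for Drd2. Its lowest striatal library was still 2.90 times its highest prefrontal library, beside 58.2 times for Adora2a against the hippocampus.

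By edgeR's quasi-likelihood test over 60 libraries, with Benjamini-Hochberg adjustment over 13930 genes, 8 of 8 genes were higher in the striatum than in the prefrontal cortex, where 35.9% of all genes were called higher and 34% lower (69.9% in either direction), and 8 of 8 than in the hippocampus, where 33.6% were called higher and 32.9% lower (66.4% in either direction). The largest adjusted p among the 16 was 9.96e-40 for Pdyn by edgeR. The median log2 difference of the 8 genes was 4.89 against the prefrontal cortex and 5.83 against the hippocampus, beside 0.01 and 0.01 for all genes tested.

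Outside the striatum the genes did not rank alike. In the prefrontal cortex 6 of the 8 were higher than in the hippocampus and Drd2 was lower, where 59.3% of all genes were called (29.1% higher and 30.2% lower). Drd1 differed by 1.61 (SE 0.075) and Pdyn by 1.18 (SE 0.067), and Tac1, Penk, Adora2a and Ppp1r1b by 0.73 to 0.78. Drd2 was the exception at -0.93 (SE 0.19, edgeR adjusted p = 3.92e-05), on 4 to 29 prefrontal and 4 to 28 hippocampal counts per library. In WT-normal mice alone the Drd2 difference was -1.81 (SE 0.44, edgeR adjusted p = 0.000658). Pde10a differed by -0.09 (SE 0.060, edgeR adjusted p = 0.198), with an adjusted p from 0.0237 to 0.314 over the alternatives. The Adora2a difference rested on few counts and was lost among WT mice on the normal diet alone (1.06, edgeR adjusted p = 0.15).

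Partner genes of the pathway showed the striatal profile to different degrees. All 17 listed identity genes of medium spiny neurons were higher in the striatum than in both other regions, among them, against the prefrontal cortex, the transcription factor Six3 (9.16, SE 0.21) and the sodium channel subunit Scn4b (4.87, SE 0.076). Among 17 genes that pass the receptor signal to cyclic AMP and DARPP-32, 14 were higher and 3 lower than in the prefrontal cortex, and 15 higher and 2 lower than in the hippocampus. Rgs9, which shortens G protein signals, led this list at 5.44 (SE 0.069), before the G protein subunit Gng7 (4.06, SE 0.053) and the phosphodiesterase Pde1b (3.69, SE 0.073). The 3 lower than in the prefrontal cortex, named after their values were seen, were Prkaca, the catalytic subunit of protein kinase A (-0.44, SE 0.041), Cdk5 (-0.32, SE 0.067) and Gnb1 (-0.31, SE 0.033), which most neurons express. The median log2 difference against the prefrontal cortex was 2.52 for the identity list and 1.29 for the transduction list, beside 0.01 for all genes.

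In the striatum the other dopamine receptor genes stood far below the members. Drd3 had 4 to 23 counts per striatal library (0.722 RPKM on average) and 0 or 1 in every library of the other regions, and passed as higher in the striatum. Drd5 was lower in the striatum than in the prefrontal cortex (log2 difference -0.35, SE 0.11) and averaged 3.15 RPKM in the hippocampus, above the 1.86 of Drd1 and 1.08 of Drd2 there. Drd4 had 0 to 9 counts in every library and was not tested. For the direct pathway 5 of 6 listed genes were higher than in the prefrontal cortex, led by Isl1 (8.36, SE 0.23), Slc35d3 (6.69, SE 0.12) and Ebf1 (2.67, SE 0.073). For the indirect pathway 2 of 3 tested genes were higher, Gpr6 (6.91, SE 0.14) and Sp9 (2.95, SE 0.11), while the kainate receptor subunit gene Grik3 was lower (-0.12, SE 0.047). The 5 receptor genes of the members' own peptides were all higher in the striatum, with the largest differences for the tachykinin receptors Tacr3 (5.19, SE 0.11) and Tacr1 (4.41, SE 0.086) and the kappa opioid receptor Oprk1 (2.76, SE 0.075). Genes of dopamine synthesis and storage act mainly in midbrain neurons, whose cell bodies lie outside the 3 regions. Of these, 3 of 4 tested were higher than in the prefrontal cortex: Th, the rate-limiting enzyme, at an average of 0.906 RPKM and a log2 difference of 1.99 (SE 0.23), the vesicular transporter gene Slc18a2 (1.47, SE 0.29) and Ddc (0.92, SE 0.10). Gch1 did not pass (-0.41, SE 0.21).

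The 5 other genes whose log2 levels over the 60 libraries were most like the mean of the 8 members were Adcy5, Pde7b, Rarb, Ankrd63 and Pde1b, with Pearson r from 0.994 to 0.997. This likeness reflects 3 regions that form separate clusters, and 482 genes had r above 0.9.

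Next, the question was whether loss of Glo1 or of dietary vitamin B6 moved these genes in the striatum. In none of the 8 striatal comparisons did any of the 8 pass the test. For KO against WT over both diets 0 of 8 were called, with 0.203% of 13311 genes called. For KO against WT on the normal diet and on the lacking diet it was 0 of 8 each (0.0601% and 0.128% of genes), and for KO-lacking against WT-normal mice 0 of 8 (0.0826%). The 3 diet comparisons and the interaction of genotype and diet gave 0 of 8 with 0% of genes called. DESeq2 and limma also called 0 members in each.

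Drd1 and Tac1, both of the direct pathway, had the lowest unadjusted p-values. Drd1 measured 140, 142, 138, 148 and 137 RPKM in the 5 WT mice on the normal diet and 136, 150.0, 129, 130.1 and 127 on the lacking diet. In KO mice it measured 143, 152, 147, 151 and 141 on the normal diet and 141, 156, 162, 128 and 143 on the lacking diet. The genotypes overlapped, although 4 of 10 KO libraries stood above every WT library and 9 of 10 above the WT median. KO exceeded WT by 0.13 on the log2 scale (SE 0.056, unadjusted p = 0.0311, edgeR adjusted p = 0.74).

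Tac1 measured 59.1, 67.5, 52.7, 62.2 and 51.8 RPKM in WT mice on the normal diet and 65.4, 68.5, 61.8, 63.7 and 57.5 on the lacking diet. In KO mice it measured 61.3, 56.7, 67.8, 71.7 and 75.9 on the normal diet and 67.9, 68.3, 72.9, 55.5 and 70.0 on the lacking diet. Here too 4 of 10 KO libraries stood above every WT library, with the rest inside the WT range. The log2 difference was 0.17 (SE 0.073, unadjusted p = 0.0274, edgeR adjusted p = 0.74). It was 0.21 (SE 0.10) in the prefrontal cortex and 0.20 (SE 0.11) in the hippocampus, where the edgeR adjusted p was 0.359 and 1.00. Pdyn, the other direct-pathway peptide gene, ranged from 21.1 to 31.5 RPKM in WT and 22.8 to 36.1 in KO striatum, a log2 difference of 0.08 (SE 0.074).

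The indirect-pathway receptors varied more among the mice of a group. Drd2 measured 137, 95.1, 130.1, 123 and 144 RPKM in WT mice on the normal diet (mice 272, 273, 283, 286 and 317) and 116, 112, 152, 103 and 136 on the lacking diet (mice 225, 226, 241, 246 and 259). In KO mice it measured 125, 125, 86.9, 79.2 and 156 on the normal diet (mice 267, 268, 368, 381 and 390) and 115, 117, 114, 125 and 68.1 on the lacking diet (mice 242, 244, 325, 339 and 452). The low values belonged to mouse 273 of the WT group and to 368, 381 and 452 of the KO groups, and the highest to mice 241 and 390. The log2 difference of KO from WT was -0.13 (SE 0.11, 95% interval -0.34 to 0.08).

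Adora2a was low and high in the same libraries. In mouse order it measured 40.1, 28.6, 42.6, 44.5 and 40.4 RPKM in WT mice on the normal diet, 40.2, 39.3, 57.0, 39.3 and 43.7 in WT on the lacking diet, 43.6, 40.6, 28.5, 25.9 and 53.4 in KO on the normal diet, and 41.6, 37.6, 46.2, 42.0 and 26.4 in KO on the lacking diet. Its log2 difference was -0.07 (SE 0.11). Penk, the indirect-pathway peptide gene, ranged from 826 to 1235 RPKM in WT and from 748 to 1242 in KO striatum and differed by 0.03 (SE 0.080).

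Ppp1r1b, expressed in both kinds of neuron, followed Drd2 from library to library, while its relation to Drd1 depended on the GC slope described below. It measured 271, 185, 251, 258 and 281 RPKM in WT mice on the normal diet, 240.2, 222, 324, 231 and 275 in WT on the lacking diet, 259, 249, 198, 178 and 314 in KO on the normal diet, and 229.5, 249.6, 236, 258 and 165 in KO on the lacking diet. The 4 libraries under 200 RPKM were again those of mice 273, 368, 381 and 452. KO differed from WT by -0.08 (SE 0.090), while Pde10a, at 219.8 to 256 RPKM in WT and 186 to 283 in KO, differed by 0.11 (SE 0.060, unadjusted p = 0.0808, edgeR adjusted p = 0.74).

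**Figure D2:**
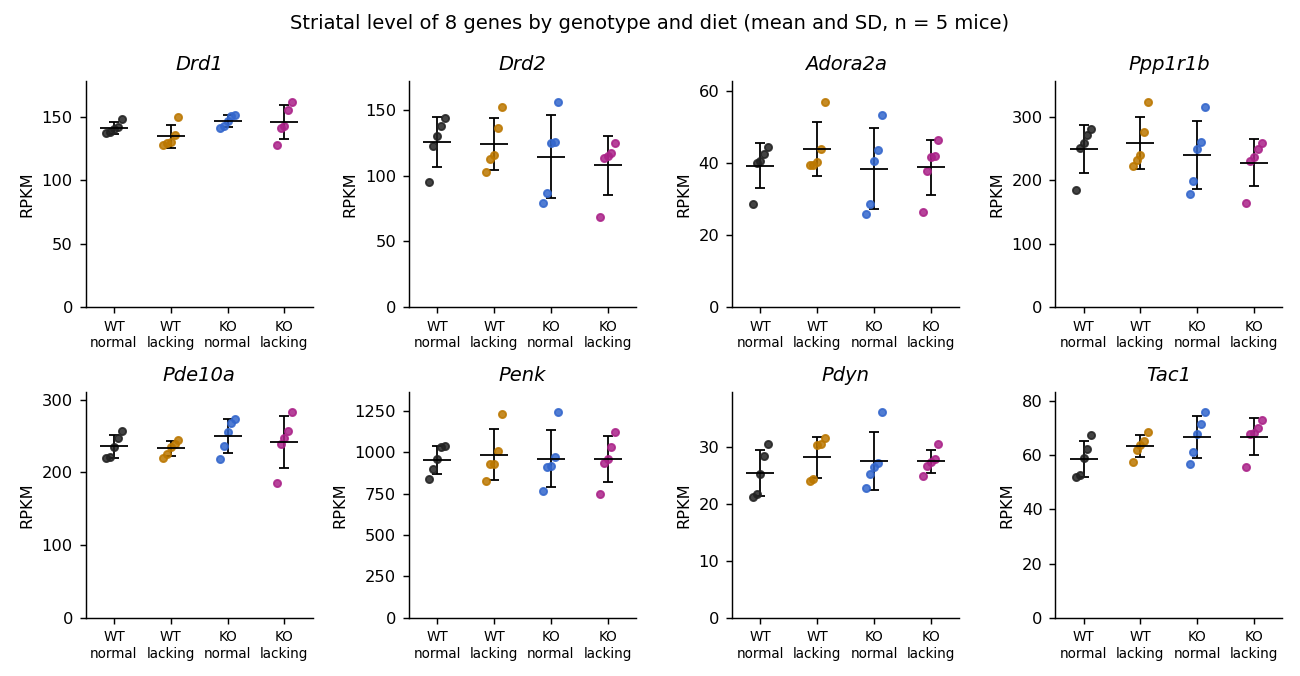
Striatal RPKM of each gene by genotype and diet, with 1 point per mouse and bars for the mean and SD (n = 5), on axes that start at 0. The 4 groups overlap for every gene, and single low libraries stretch the spread of Drd2, Adora2a and Ppp1r1b.

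Diet differences in the striatum were small for every member. For the lacking against the normal diet over both genotypes the 8 log2 values ran from -0.06 for Drd2 (SE 0.11) to 0.08 for Adora2a (SE 0.11), and their 95% intervals together covered -0.27 to 0.30. Drd1 stood at -0.05 (SE 0.056), Pde10a at -0.04 (SE 0.060), Ppp1r1b at -0.02 (SE 0.090), Penk at 0.01 (SE 0.080), Tac1 at 0.05 (SE 0.073) and Pdyn at 0.06 (SE 0.074). For KO against WT the 8 intervals covered -0.34 to 0.32. Counts simulated with the striatal depth and spread gave a rough scale of what could be missed in the KO against WT comparison. Of genes changed by 1.25-fold 32% were called, of those changed by 1.5-fold 74% and of those changed by 2-fold 98%. The simulation changed 200 genes drawn at random, let genes vary independently and gave 167 calls, 15 of them false. With the 27 calls of the real comparison the cutoff is stricter, so these shares can overstate detection. Spread within groups also differed between members.

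In the prefrontal cortex Adora2a fell below the count filter, and 0 of the 7 tested members passed in any comparison. For KO against WT this was beside 0.673% of 13223 genes called over diets, 0.121% on the normal and 0.234% on the lacking diet, and for KO-lacking against WT-normal mice beside 0.28%. In all diet comparisons and the interaction 0% of genes were called. These shares rest on single libraries: with 1 left out, KO against WT over diets gave 46 to 390 calls (89 with all), the lacking diet 15 to 217 (31) and KO-lacking against WT-normal 20 to 97 (37), with 390 and 217 in the absence of mouse 226. Among the members Drd2 came nearest. Its counts were 5, 4, 4, 4 and 7 in WT mice on the normal diet, 8, 5, 7, 12 and 4 in WT on the lacking diet, 9, 17, 11, 7 and 16 in KO on the normal diet and 9, 17, 14, 29 and 14 in KO on the lacking diet. That is 0.303 ± 0.069, 0.483 ± 0.231, 0.649 ± 0.249 and 0.936 ± 0.454 RPKM in the same order (SD, n = 5). KO libraries ranged higher, with 4 of 10 above every WT library, and KO mice on the lacking diet did not overlap WT mice on the normal diet. The share of all genes without such overlap was not counted. In that comparison 13% of the 13223 genes had an unadjusted p under 0.05 by edgeR.

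The prefrontal Drd2 difference was 0.99 (SE 0.28, edgeR adjusted p = 0.097) for KO against WT over diets. For KO-lacking against WT-normal mice it was 1.55 (SE 0.41, edgeR adjusted p = 0.0861), which passed at an edgeR adjusted p of 0.0487 when the slope of library signal on GC content, described below, entered the fit. The 7 medium spiny neuron markers outside the set, measured in the same libraries, summed to 63.3 to 70.8 RPKM in WT on the normal diet, 62.9 to 76.1 in WT on the lacking diet, 63.3 to 69.9 in KO on the normal diet and 61.9 to 65.7 in KO on the lacking diet. In the KO against WT comparison over diets 1 of 5 astrocyte and 1 of 5 microglia markers were lower, and the astrocyte markers summed to 327 to 405 RPKM in WT on the normal diet, 285 to 386 in WT on the lacking diet, 279.7 to 349.9 in KO on the normal diet and 259.6 to 319 in KO on the lacking diet. The microglia markers summed to 69.3 to 86.4, 73.1 to 89.7, 66.8 to 73.1 and 59.8 to 71.2 RPKM in the same order of groups. The part of these markers in the Drd2 values was not tested. The prefrontal difference in Drd2 exceeded the striatal one by 1.12 on the log2 scale (striatum minus prefrontal cortex -1.12, SE 0.33, unadjusted p = 0.00129), which did not pass over all genes (edgeR adjusted p = 0.499).

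In the hippocampus, where Adora2a was again below the filter, 0 of 7 members passed. The share of 13393 genes called was 0.164% for KO against WT over diets, 0.0299% on the normal diet, 0.0672% on the lacking diet, 0.0149% for KO-lacking against WT-normal mice, and 0% in the diet comparisons and the interaction. Drd1 measured 1.85 ± 0.473 and 1.78 ± 0.183 RPKM in WT mice on the normal and lacking diets and 1.59 ± 0.503 and 2.24 ± 0.268 in KO mice (SD, n = 5), on 35 to 106 counts. Its interaction of genotype and diet was 0.59 (SE 0.27, unadjusted p = 0.0359, edgeR adjusted p = 0.516). For Pde10a the lacking diet minus the normal diet over genotypes was 0.27 in the prefrontal cortex (SE 0.11, unadjusted p = 0.018, edgeR adjusted p = 1.00) and 0.12 in the hippocampus (SE 0.056, unadjusted p = 0.0413, edgeR adjusted p = 0.999), with overlapping groups.

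**Figure D3:**
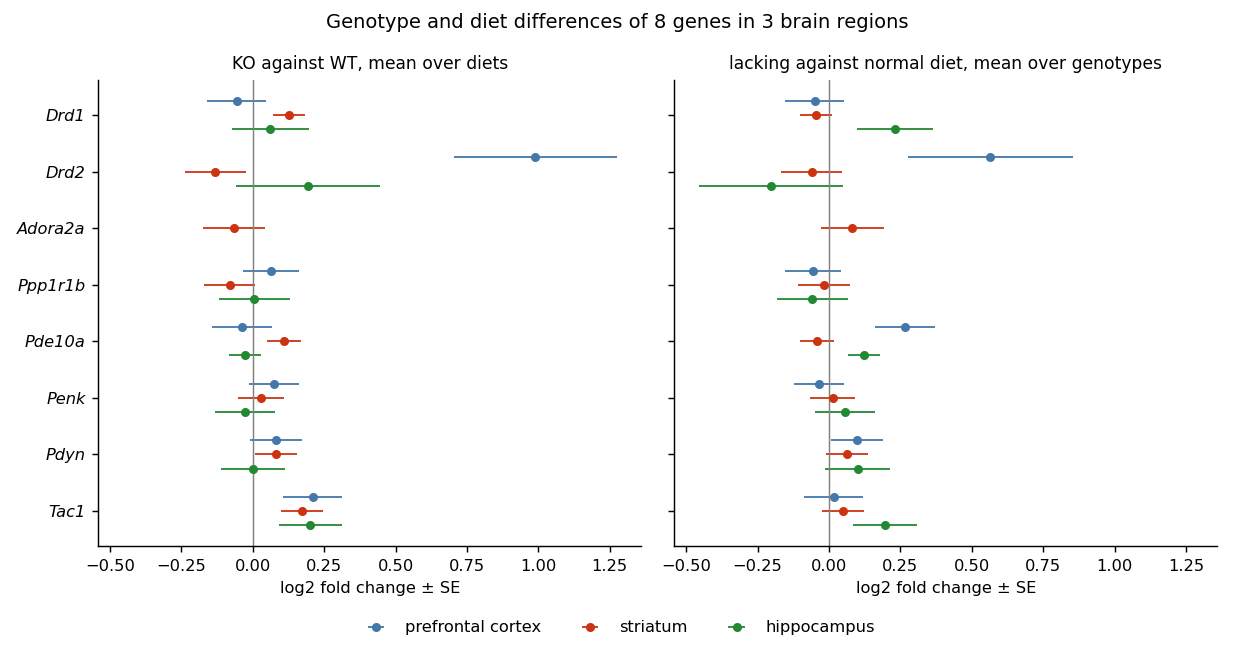
Log2 fold change with its standard error of each gene in each region for KO against WT (left, mean over diets) and for the lacking against the normal diet (right, mean over genotypes), on shared axes. Most values lie within 0.2 of 0; the prefrontal value of Drd2, on 4 to 29 counts per library, stands apart in the left panel and has the widest error bars there.

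Across the 24 comparisons within regions the members gave 176 tests, of which 13 had an unadjusted p under 0.05 (7.39%) and 0 an adjusted one by edgeR. Over all genes the share with an unadjusted p under 0.05 ran from 1.68% to 14.1% between comparisons. Whether the regions differed in their response was tested in the 60-library fit: in 6 comparisons of the genotype or diet effect between regions 0 of 48 member tests passed by edgeR and 3 had an unadjusted p under 0.05, with 0% of all genes called in 5 of the comparisons and 0.00718% in the comparison of the KO effect in prefrontal cortex with that in hippocampus.

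The striatal libraries in which Drd2 was low or high led to a closer look at how the members varied among mice of one group. After removal of the 4 group means, the 28 pairs of members were correlated over the 20 striatal libraries, with permutation within groups and Benjamini-Hochberg adjustment over the 28 pairs. By Pearson r 8 pairs passed and by Spearman rho 4. With 1 library left out 4 to 11 pairs passed by r, with 4 in the absence of mouse 241, 273, 325, 368, 390 or 452 and 5 in that of mouse 246. Drd2 and Ppp1r1b were the closest pair, with r = 0.97 and rho = 0.97 (permutation p = 1e-05 for both, the smallest the 100000 permutations can give, adjusted p = 0.00028). Drd2 and Adora2a gave r = 0.92 and rho = 0.76 (permutation p = 0.00011 and 0.00134), and Adora2a and Ppp1r1b r = 0.92 and rho = 0.75 (permutation p = 0.00012 and 0.00105), all with adjusted values up to 0.0116. Without the 2 libraries farthest from the median level of the first gene the 3 values of r were 0.96, 0.87 and 0.88. They also held within the genotypes, which are the batches: 0.95, 0.82 and 0.90 in WT and 0.99, 0.95 and 0.94 in KO.

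The direct pathway gave 1 pair, Drd1 with Tac1 (r = 0.71, rho = 0.71, permutation p = 0.00087 and 0.00166, adjusted 0.00609 and 0.0116), with r = 0.81 in WT, 0.64 in KO and 0.59 without the 2 farthest libraries. Pdyn, the other direct-pathway peptide gene, passed with neither Drd1 (r = -0.32, rho = -0.39) nor Tac1 (r = -0.18, rho = -0.26). Drd1 and Drd2 pointed in opposite directions without passing (r = -0.39, rho = -0.49, permutation p = 0.142 and 0.0481, adjusted 0.206 and 0.112). Penk passed by r alone with Drd2 (0.67), Adora2a (0.65) and Ppp1r1b (0.67), with 0.76, 0.78 and 0.70 in WT and 0.64, 0.59 and 0.65 in KO, and Pdyn with Drd2 (0.55, with 0.52 in WT and 0.62 in KO). Their permutation p-values ran from 0.00516 to 0.013 (adjusted 0.0289 to 0.0455), and those of rho from 0.00954 to 0.0615. Pde10a passed with no other member. The within-group SD on the log2 scale was 0.28 for Drd2, 0.28 for Adora2a and 0.23 for Ppp1r1b but 0.12 for Drd1 and 0.14 for Pde10a. Among genes within 1 log2 unit of its mean level, the SD of Drd2 stood at the 96.2 percentile and that of Drd1 at the 35.5 percentile.

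These pairings moved with the base composition of the transcripts. The longest annotated transcript had 61.0% GC for Ppp1r1b, 59.2% for Adora2a and 55.0% for Drd2, but 46.0% for Drd1 and 42.8% for Tac1, around a median of 49.5% for expressed genes. For each library a GC slope was computed over 12554 other genes, as the change in log2 signal relative to the other striatal libraries per 10 percentage points of transcript GC. It ran from -0.30 in mouse 452 to 0.25 in mouse 241, and the 4 lowest libraries were mice 452, 368, 381 and 273, the same 4 with low Drd2. After removal of group means it correlated with Drd2 (r = 0.89, rho = 0.87, permutation p = 2e-05 and 1e-05), Ppp1r1b (r = 0.91, rho = 0.86, permutation p = 1e-05 and 4e-05) and Adora2a (r = 0.84, rho = 0.74, permutation p = 0.00039 and 0.00151). With Drd1 (r = -0.68, rho = -0.78, permutation p = 0.00172 and 0.00047) and Tac1 (r = -0.67, rho = -0.70, permutation p = 0.00605 and 0.00327) it was negative. The largest adjusted value over the family of 46 such relations was 0.0398 among these 5 by either measure. Without the 2 libraries farthest from the median of the member's level, r was 0.88, 0.88, 0.78, -0.60 and -0.64 in the same order. Within WT the 5 values were 0.90, 0.94, 0.84, -0.75 and -0.87, and within KO 0.90, 0.90, 0.84, -0.65 and -0.55. Penk (r = 0.51), Pdyn (0.56) and Pde10a (0.19), with 52.7%, 51.9% and 48.3% GC in the longest transcript, did not pass.

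**Figure D4:**
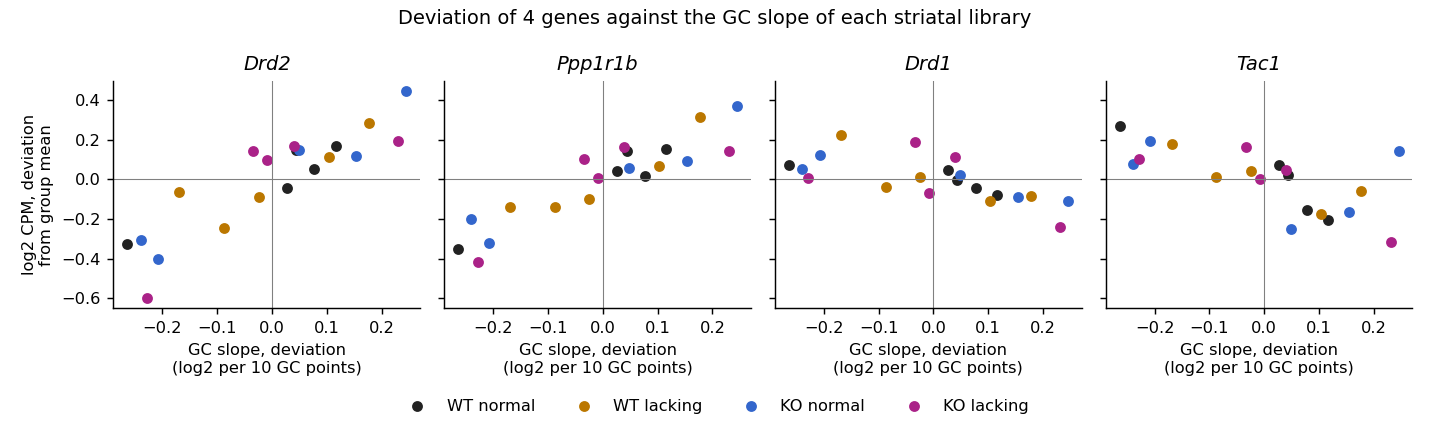
Deviation of log2 CPM from the group mean against the deviation of the library's GC slope, for 20 striatal libraries coloured by group. Drd2 and Ppp1r1b climb with the slope (r = 0.89 and 0.91), and Drd1 and Tac1 descend (r = -0.68 and -0.67).

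With the GC slope regressed out besides the group means, a step chosen after the pattern was seen, 9 pairs passed, of which Drd2 with Ppp1r1b (r = 0.84), Drd2 with Adora2a (0.69) and Adora2a with Ppp1r1b (0.71) were among the former 8. Pde10a now passed with Drd2 (0.91), Ppp1r1b (0.86) and Adora2a (0.68). The other 3 pairs joined genes of the direct and indirect pathways: Penk with Tac1 (r = 0.72, permutation p = 0.00103, adjusted 0.00721), Penk with Drd1 (0.63, permutation p = 0.0135, adjusted 0.0439) and Adora2a with Tac1 (0.55, permutation p = 0.00843, adjusted 0.0393). Penk no longer passed with Drd2 (0.55), Adora2a (0.47) or Ppp1r1b (0.60). Drd1 and Drd2 changed from -0.39 to 0.66 (permutation p = 0.0384, adjusted 0.0672), so the sign of their relation depended on this step. The same held for Drd1 with Ppp1r1b, from -0.43 to 0.65 (permutation p = 0.0311, adjusted 0.0672). Drd1 with Adora2a went from -0.32 to 0.64 (permutation p = 0.0373, adjusted 0.0672). Drd1 with Tac1 was at r = 0.45 (permutation p = 0.026, adjusted 0.0662) and rho = 0.57 (permutation p = 0.0156, adjusted 0.0437), and Drd2 with Pdyn went from 0.55 to 0.14. With the slope as a covariate in the edgeR fit, the KO against WT values in the striatum became 0.00 for Drd2, 0.06 for Adora2a and 0.04 for Ppp1r1b, from -0.13, -0.07 and -0.08. For Drd1 the KO against WT value in the striatum, 0.127 without the slope, ran from 0.076 to 0.131 over the alternatives. For Tac1 it was 0.172 and ran from 0.105 to 0.179. The fit with the slope was among these alternatives. The part of the slope in the pairings was not tested further.

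**Figure D5:**
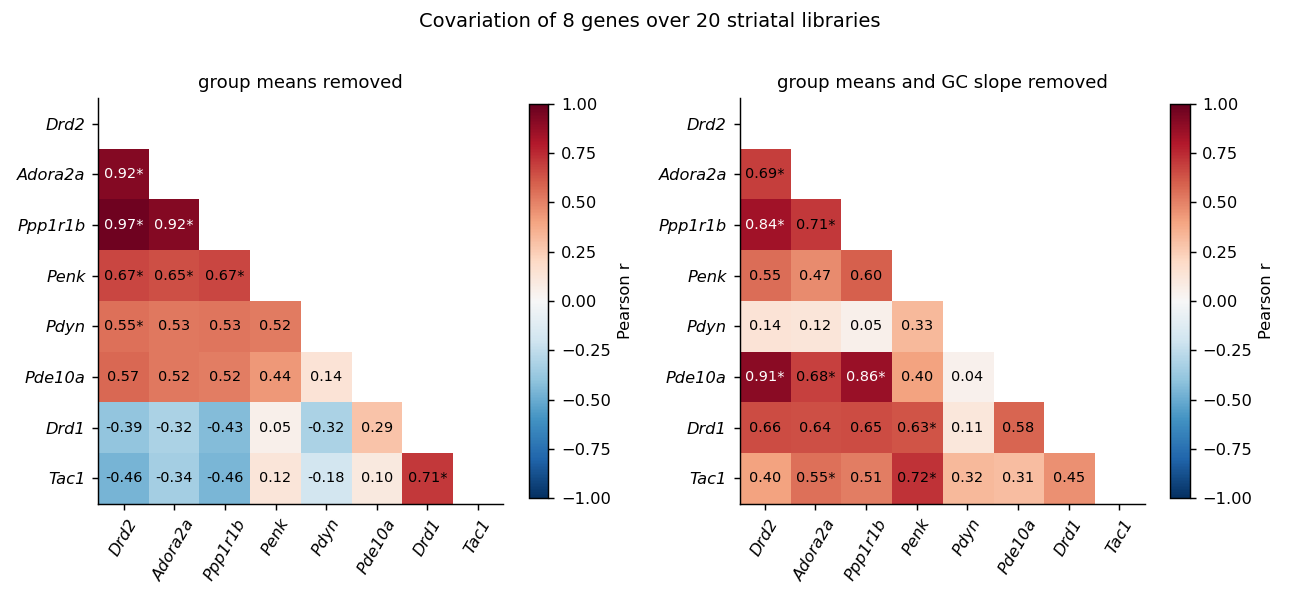
Pearson r for the 28 pairs of members over 20 striatal libraries, with group means removed (left) and with the GC slope also removed (right); an asterisk marks an adjusted permutation p under 0.05. On the left Drd2, Adora2a and Ppp1r1b form a block and Drd1 and Tac1 a pair of their own; on the right Pde10a joins the block, Penk passes with Drd1 and Tac1, Adora2a passes with Tac1, and no negative value remains.

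Markers of some other cells moved with the receptors as well. The summed markers of medium spiny neurons outside the set passed with neither receptor. They gave r = 0.55 with Drd1 (permutation p = 0.0658, adjusted 0.189) and r = 0.37 with Drd2 (permutation p = 0.195, adjusted 0.374). The summed markers of cortical excitatory neurons correlated with Drd1 at r = -0.73 (rho = -0.66, permutation p = 0.00704 and 0.00967, adjusted 0.0405 and 0.0494) and those of cholinergic neurons at r = 0.75 (rho = 0.70, permutation p = 0.00218 and 0.00266, adjusted 0.019 and 0.0204). With Drd2 the astrocyte markers correlated at r = -0.68 (rho = -0.69, permutation p = 0.00248 and 0.00211, adjusted 0.019 and 0.0194). Without the 2 farthest libraries these were -0.49, 0.61 and -0.48. Within WT they were -0.89, 0.84 and -0.42, and within KO -0.65, 0.70 and -0.76. The microglia markers passed with Drd1 by rho alone (r = 0.57, rho = 0.63, permutation p = 0.0192 and 0.00879, adjusted 0.0803 and 0.0494). All 7 cortical markers, 4 cholinergic markers and 5 astrocyte markers were detected in the striatum, at sums of 22.1 to 93.6, 19.2 to 27.8 and 225 to 294 RPKM, and their part in the levels of Drd1 and Drd2 was not tested. RIN and library total correlated with no member after adjustment.

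Outside the set, the genes that varied most like single members in the striatum, with group means removed, were also listed. Necab2 (r = 0.98), Inf2 (0.97) and Mink1 (0.97) were nearest to Drd2, and 151 genes had r above 0.9 with it. Rasd2 (0.97) was nearest to Adora2a and Cntnap1 (0.97) to Ppp1r1b. St8sia3 (0.93) was nearest to Drd1, with 6 genes above 0.9. Mtpap (0.91) was nearest to Tac1, Camk2b (0.93) to Penk, Sgpp2 (0.86) to Pde10a and Agtr1a (0.83) to Pdyn. The mean of all 8 was most like Gng7 (0.90), a G protein subunit of the same pathway, before Psmd2 (0.88), Tmem192 (0.88), Dnajb12 (0.88) and Lrrc10b (0.88). These are descriptions over 20 libraries that share the GC slope.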

How the data were processed

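Poly(A) messenger RNA from 2 µg of total RNA had been sequenced as 75-base single ends in 3 regions of 20 mice. Per the submitters' processing notes, STAR 2.7.1a, HTSeq 0.9.1 and the mouse build mm10 were used. The deposited tables gave raw counts per gene and, separately, RPKM values, and each deposited RPKM equalled the count over gene length and library total. All 60 columns were matched to samples by name. The strand setting is not given in the sources used here.

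The main test was edgeR 4.0.16 (R 4.3.3) on the counts: TMM scaling, genes kept by filterByExpr (min.count 10, min.total.count 15), quasi-likelihood F-tests and Benjamini-Hochberg adjustment at 0.05 over all genes. Genotype and diet were tested within each region over 20 libraries and 4 group means, and regions over 60 libraries and 12 group means. Every mouse gave 1 library per region, so the mouse pairs the regions. The median correlation of a mouse's deviations from its group means over 9532 genes was 0.07 between prefrontal cortex and striatum, 0.06 between prefrontal cortex and hippocampus and 0.16 between striatum and hippocampus, and 7, 6 and 8 of 20 mice correlated best with themselves. Each mouse was compared with the 5 mice of its group, itself included, so chance gives 1 in 5. Totals of 7640047 to 13928265 counts set a floor of 3 counts at 0.215 to 0.393 CPM. The SE of an edgeR log2 difference was derived from the test, as its absolute value over the square root of the quasi-likelihood F. Intervals of log2 differences are normal 95% intervals from this SE. The fit was checked on simulated counts. Alternatives were DESeq2 1.42.0, limma 3.58.1 on log2(RPKM + 1), no TMM scaling, no filter or a mean of at least 1 CPM, WT-normal mice alone for regions, RIN as a covariate, the mouse as a block, and each library or mouse left out. The GC slope, over genes averaging at least 1 CPM, was added after seeing the data.

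The members and lists were chosen with earlier results of these data known. All members are named in every region. List genes are named where they passed in a genotype or diet comparison, or as the 3 with the largest difference between striatum and prefrontal cortex; 1 listed gene is not reported here. Genes most like the mean of the members are the 5 with the highest r; those most like single members were named after their values were seen.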

Additional observations from a re-analysis of the deposited data

Results flagged for a closer look

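In 9 of 96 sets of 5 libraries (a gene in 1 region, genotype and diet) the highest or lowest library stood apart from the other 4 by a gap large against the range (Dixon's 95% critical value). Chance gives about 1 in 20, or 4.8 sets. In the striatum Drd2 was low in mouse 452 (KO, lacking diet) at 68.1 RPKM with the others at 114 to 125, and Adora2a was low in mouse 273 (WT, normal diet) at 28.6 with the others at 40.1 to 44.5. Adora2a was high in mouse 241 (WT, lacking diet) at 57.0 RPKM, the others lying at 39.3 to 43.7. These are the libraries with GC slopes of -0.30, -0.23 and 0.25 on the log2 scale per 10 percentage points of GC. Tac1 was low in the striatum of mouse 339 (KO, lacking diet) at 55.5 RPKM, the others lying at 67.9 to 72.9.

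In the prefrontal cortex Drd1 was high in mouse 242 (KO, lacking diet) at 5.99 RPKM, with the others at 4.81 to 5.12, and Tac1 in mouse 226 (WT, lacking diet) at 4.53, with the others at 3.09 to 3.43. In the hippocampus Drd1 was high in mouse 272 (WT, normal diet) at 2.68 RPKM, with the others at 1.54 to 1.74. Ppp1r1b was low there in mouse 325 (KO, lacking diet) at 3.41 RPKM, with the others at 5.11 to 5.74. Adora2a was high in the hippocampus of mouse 452 at 0.446 RPKM, which is 12 counts, with the others at 0.0367 to 0.144.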

How the results depend on the processing

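The number of members called was the same in all 660 comparisons with a library or mouse left out. It differed in 4 of 234 comparisons under the alternatives. Each fit gave several of these comparisons, so they are not separate fits. For KO-lacking against WT-normal mice in prefrontal cortex 1 member (Drd2, 1.50) passed with the GC slope as a covariate. Between prefrontal cortex and hippocampus 8 were called without TMM and with RIN, and 6 in WT-normal mice alone, against 7. With the mouse as a replicate block, the pairing by mouse changed no member's call between regions (8, 8 and 7 called). Correlated pairs numbered 14 on log2(RPKM + 1), 14 without TMM scaling, 4 with RIN regressed out and 9 with the GC slope, and 4 to 11 with 1 library left out, against 8. The count was 4 without mouse 241, 273, 325, 368, 390 or 452, and 5 without mouse 246. Uncalled striatal values changed sign for KO against WT with the GC slope (Drd2 0.0039, Adora2a 0.064, Ppp1r1b 0.042), and for Penk by limma (-0.019) and without TMM (-0.013). With a library left out Penk ran from -0.0186 to 0.0712. For diet, Penk was -0.00098 with RIN and -0.0303 to 0.0594 with a library left out, Drd2 -0.105 to 0.0021 and Ppp1r1b -0.0602 to 0.0347. Between prefrontal cortex and hippocampus Adora2a did not pass by limma (0.12, adjusted p = 0.106), while Pde10a passed by limma, without TMM and with RIN (-0.15, -0.15 and -0.14). The causes were not tested. Over all genes, KO against WT over diets in the prefrontal cortex gave 67 to 308 calls over the alternatives and 46 to 390 with a library left out, against 89; on the lacking diet it gave 17 to 166 and 15 to 217 against 31, and KO-lacking against WT-normal mice 21 to 273 and 20 to 97 against 37. Low counts limit Drd2 and Adora2a outside the striatum, where log2(RPKM + 1) understates differences.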

Other observations

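Choroid plexus markers differed widely between hippocampal libraries, with a summed 5 genes at 5.52 to 1248 RPKM and a median of 30.9. In the prefrontal cortex and the striatum the same sum stayed between 0.345 and 9.88 RPKM.

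Of the 8 pairs that passed in the striatum, the 5 without Adora2a were computed in the other regions too, as a description. In the prefrontal cortex and the hippocampus, r was 0.32 and 0.18 for Drd2 and Ppp1r1b, 0.23 and 0.20 for Drd1 and Tac1, 0.27 and 0.36 for Drd2 and Penk, 0.30 and 0.27 for Drd2 and Pdyn, and 0.12 and 0.55 for Ppp1r1b and Penk, each over 20 libraries with group means removed, and at far lower counts than in the striatum.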
